A study of Mus musculus with 21 samples.

Results

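Receptors for cytokines and chemokines were followed through 21 RNA-seq libraries of sorted mouse spleen cells. Genes were taken by symbol, as the Ccr, Cxcr and Cx3cr1 chemokine receptors and the Il, Csf, Ifn and Tgfbr receptor chains, leaving out Ccr7, Il7r and Il1rn. This gave 64 of the 14273 genes in the deposited table. They comprised 16 chemokine receptors, 10 interferon and IL-10 class chains, 8 IL-6 and IL-12 class chains and 8 chains grouped as the common gamma chain family, Il13ra1 included. The rest were 7 CSF receptors with the common beta chain, 7 IL-1 and IL-18 class receptors, 5 genes with a Tgfbr symbol and 3 IL-17 receptors. Of the Tgfbr genes, Tgfbrap1 encodes a protein that binds the type I receptor. It is not itself a receptor but is counted with the receptors below. The cells came from C57BL/6 mice in 7 groups of 3 libraries. CD45+ Ter119+CD71+ cells and CD45- Ter119+CD71+ cells were sorted from mice that were tumor-bearing, anemic or neonatal. Ter119 and CD71 mark erythroid cells, and CD45 is the leukocyte phosphatase that erythroid cells lose as they mature. The last group was MDSC, myeloid-derived suppressor cells labelled CD11b+Gr1+, from spleens of tumor-bearing animals. The tumor, the cause of the anemia and the age of the neonates are not given in the labels, nor is whether the 3 libraries of a group stand for different animals or sorts. All p-values below thus reflect library-to-library spread, which may be technical.

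Most of these receptors have no enzyme of their own. Chains of the cytokine receptor class pair on the cell surface, often around a shared partner such as the common gamma or common beta chain, and bound Janus kinases pass the signal to STAT factors. Receptors of the IL-1 class signal through adaptors such as Myd88, TGF-beta receptors are serine/threonine kinases acting on Smad proteins, Csf1r is a tyrosine kinase, and chemokine receptors couple to G proteins and steer cell movement. In the spleen they are best known on leukocytes, while erythroid precursors depend on the erythropoietin receptor Epor, which the symbol rule does not reach.

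Every value was computed as 2 to the power of the deposited log2 number. Its unit is not named in the labels, so one receptor is compared between groups and not with another receptor. Summed values ran from 227961 to 349261 per library and read depth is unknown, so the spread between libraries carries all of the error. A value of at least 1 was reached in at least 3 of the 21 libraries by 51 receptors. The other 13 were Ccr4, Ccr8, Ccr9, Ccr10, Cxcr1, Il11ra2, Il17rb, Il17re, Il20ra, Il22ra1, Il22ra2, Il23r and Il31ra, which were not tested. Receptors with a value of at least 1 numbered 37 to 49 in a tumor CD45+ library, 46 to 50 in an anemia CD45+ library, 36 to 48 in a neonatal CD45+ library and 32 to 36 in an MDSC library. In CD45- cells they numbered 13 to 15, 14 to 16 and 17 to 21 in libraries of tumor-bearing, anemic and neonatal mice. Among all 64, the highest group mean lay in anemia CD45+ cells for 27, in MDSC for 22, in neonatal CD45+ cells for 6, in tumor CD45+ cells for 4 and in CD45- groups for the rest. Of the 51 that reached 1, anemia CD45+ cells and MDSC were level, each being highest for 20. Tumor CD45+ and neonatal CD45+ cells were each highest for 4 of the 51.

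The sorts carried their labels' genes together with leukocyte transcripts. Ptprc, which encodes CD45, was 86.7 to 477 in the 9 CD45+ libraries and 1.23 to 5.50 in the 9 CD45- libraries. The 9 erythroid markers in the table, of 10 listed, summed to 10032 to 16334, 2491 to 31892 and 5315 to 20937 in CD45+ cells of tumor-bearing, anemic and neonatal mice. In CD45- cells of these kinds of mice the sums were 44381 to 133068, 25274 to 104272 and 69607 to 108479. All 10 neutrophil markers had a value of at least 1 in each CD45+ library. Their sum was 28030.1, 29271 and 11102 in tumor CD45+ replicates 1, 2 and 3, 839, 471 and 2709 in those of anemia CD45+ cells and 11829, 10039.5 and 9395 in the neonatal CD45+ libraries, against 44546 to 69018 in MDSC. All 8 B cell markers also reached 1 in each CD45+ library, with sums of 137, 174 and 553 in the tumor group, 776, 936 and 819 in the anemia group and 143, 100.1 and 343 in the neonatal group. Replicate 3 of tumor CD45+ cells had the lowest neutrophil and the highest B cell sum of its group, and replicate 3 of anemia CD45+ cells had the highest neutrophil sum of its group. The erythroid sum was lowest in replicate 3 in each of the 7 groups. Replicate 3 of anemia CD45+ cells held 2491, against 31892 and 20552.5 in replicates 1 and 2. In MDSC the sums were 1121, 460 and 65.9. Tumor CD45+ replicate 3 and anemia CD45+ replicate 3 are named below where they stand apart. Whether a shift of replicate 3 common to every group lies behind this was not tested. The part of neutrophils, B cells or other leukocytes in the receptor values was not tested. In such bulk samples fewer cells of a type and less RNA per cell cannot be told apart.

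CD45+ cells exceeded CD45- cells for most tested receptors in each kind of mouse. Tests used limma on log2(value + 1) with Benjamini-Hochberg adjustment over all 11195 genes tested, at an adjusted p below 0.05, and fold changes are differences on that scale, which understates the change of genes with low values. In tumor-bearing mice 36 of 50 tested receptors rose and 2 fell, while 50.2% of all tested genes rose and 10.9% fell (61.1% in either direction). In mice with anemia 43 rose and 2 fell, against 47.4% and 11.3% of all genes (58.7% together), and in neonates 34 rose and 0 fell, against 49.6% and 10.3% of all genes (59.9% together). At an unadjusted p under 0.05 the neonatal counts were 35 and 0. The median log2 fold change of the tested receptors was 2.09 in tumor, 2.19 in anemia and 1.47 in neonatal mice, against 0.75, 0.68 and 0.75 for all tested genes. A receptor high in CD45+ cells alone could enter the test through those libraries, so the counts describe the 50 tested and not all 64.

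The split into higher and lower depended on scaling. Under median-ratio scaling the counts were 32 higher and 3 lower in tumor, 35 and 4 in anemia and 27 and 3 in neonatal mice, where 3556 and 2852, 3278 and 2812, and 3303 and 2692 of all genes were higher and lower. Under quantile normalization they were 30 and 4, 29 and 3, and 24 and 2, where 2811 and 2968, 2784 and 2905, and 2848 and 2728 of all genes were higher and lower. Relative to the median of all genes, the median receptor was 1.72 against 0.06 in tumor-bearing mice under median-ratio scaling and 1.13 against -0.04 under quantile normalization. It was 1.80 against 0.04 and 1.34 against -0.04 in mice with anemia, and 1.03 against 0.06 and 0.64 against 0.03 in neonates.

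Of the 50, 32 rose in all 3 kinds of mice, as did 36.3% of all tested genes. A further 6 rose in 2 kinds of mice and 5 in 1. Another 7 did not rise in any, namely Cxcr4, Ccr3, Cx3cr1, Ifnar2, Il1rl2, Il1r1 and Il1rl1, and the last pair fell in tumor-bearing mice and mice with anemia. In the plot of all libraries the CD45- columns are dark for most families and bright mainly for Ifnar1, Ifnar2, Il10rb, Cxcr4 and Il1rl1.

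**Figure D1:**
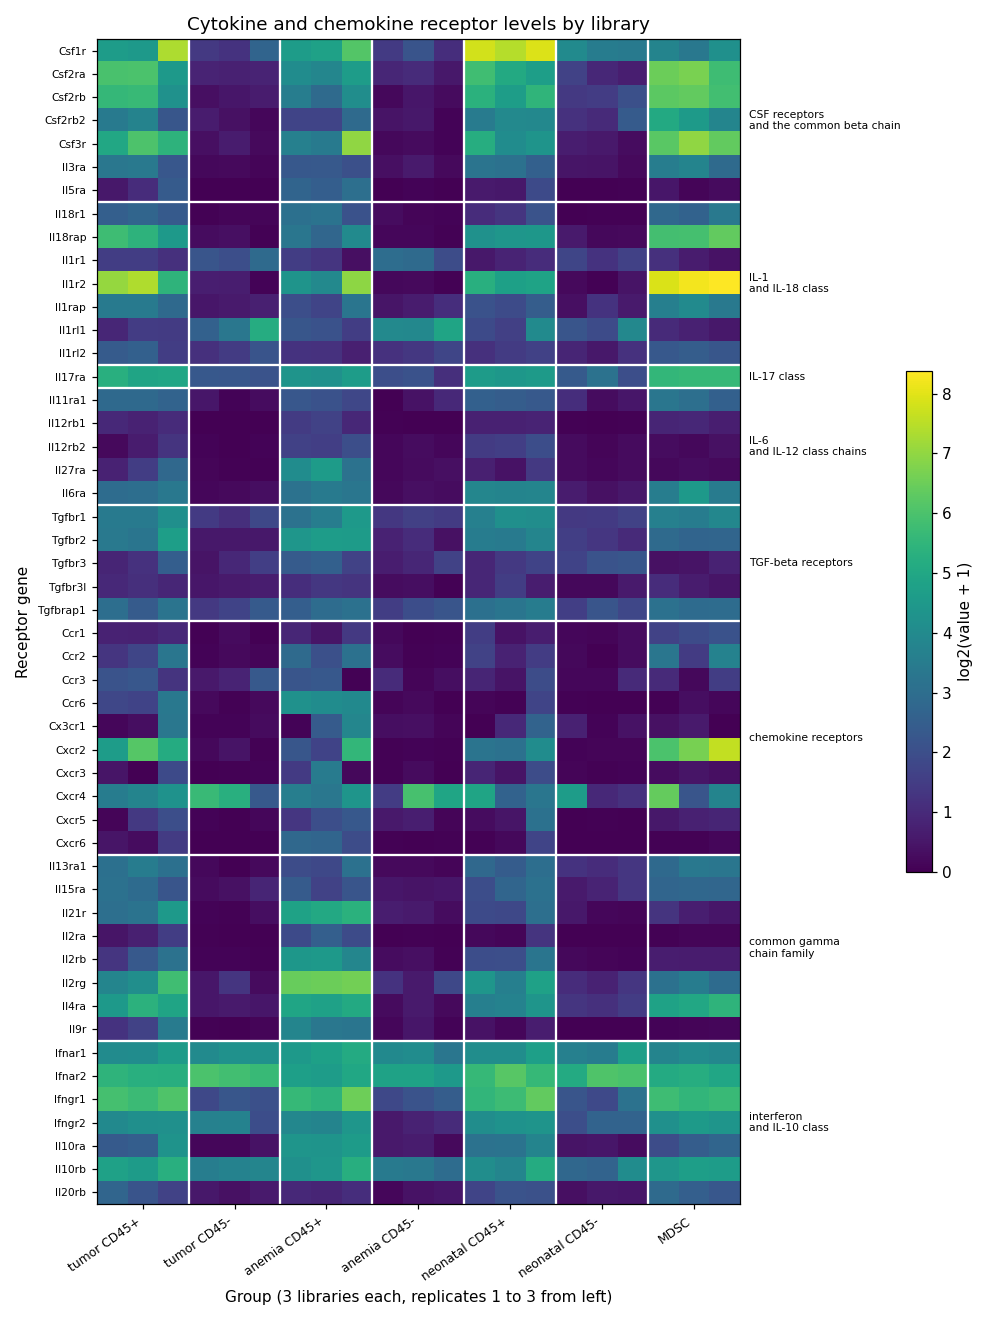
Level of each of 50 receptors that reached a value of 1 in at least 3 libraries, as log2(value + 1) on the colour scale, in 21 libraries (columns, 3 per group) with genes (rows) grouped by receptor family. CD45- libraries hold 13 to 21 receptors with a value of at least 1, and CD45+ libraries hold 36 to 50.

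**Figure D2:**
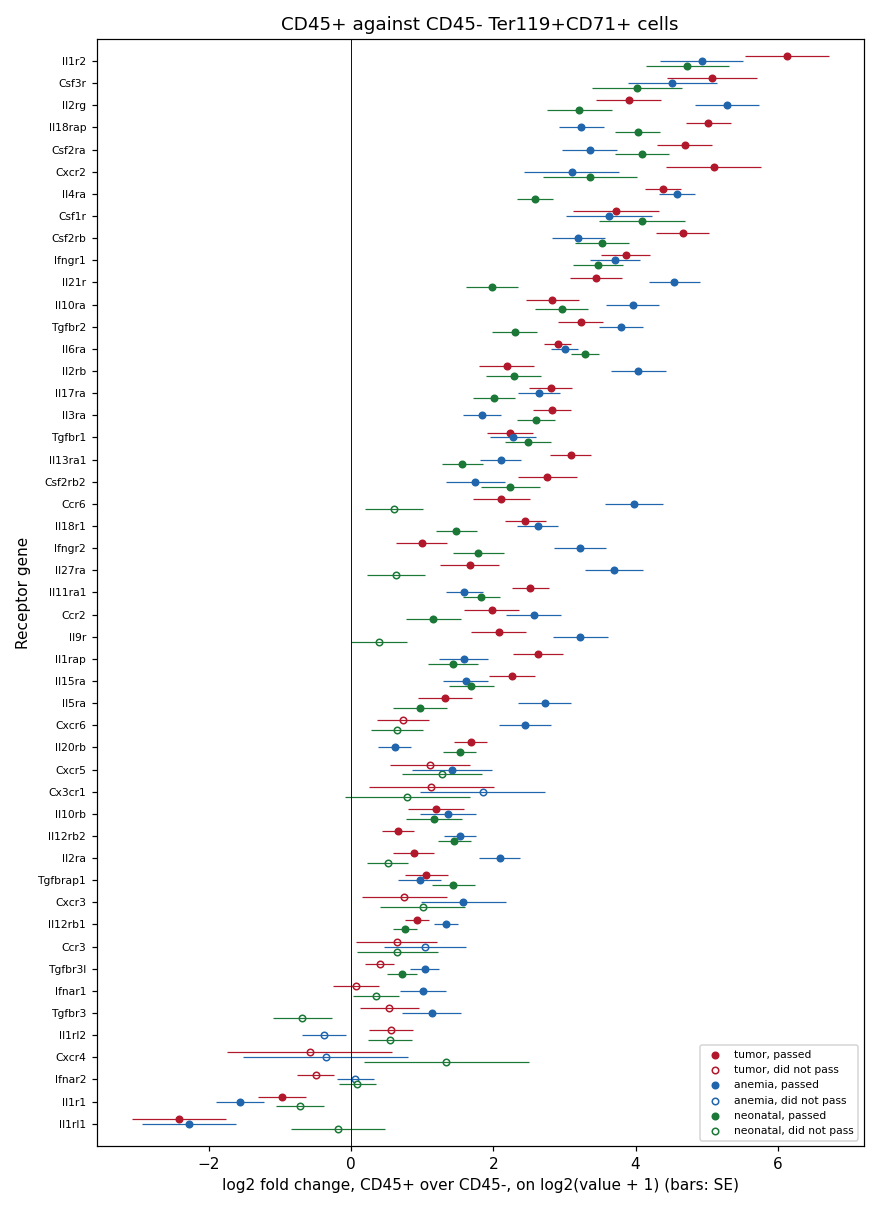
Log2 fold change of CD45+ over CD45- Ter119+CD71+ cells on log2(value + 1) for 49 tested receptors (rows) in tumor-bearing, anemic and neonatal mice (colours), with the standard error of the limma fit as bars and filled points where the adjusted p was below 0.05. Filled points lie right of 0 for 36, 42 and 33 receptors, and left of 0 only for Il1r1 and Il1rl1 in tumor-bearing mice and mice with anemia.

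The colony-stimulating factor receptors rose in CD45+ cells in every kind of mouse, all 7 of the 7 genes of the family in each comparison. Of all tested genes 50.2%, 47.4% and 49.6% rose in tumor, anemia and neonatal mice. Csf3r, the receptor for the granulocyte factor G-CSF, stood at 31.2, 63.98 and 41.5 in tumor CD45+ cells, against 0.272, 0.566 and 0.168 in tumor CD45- cells. It stood at 11.6, 9.66 and 126 in anemia CD45+ cells, against 0.1203, 0.184 and 0.0594 in anemia CD45- cells. In neonates it was 35.8, 15.82 and 19.3 in CD45+ cells and 0.601, 0.491 and 0.222 in CD45- cells. No CD45- library of these mice reached the lowest CD45+ library, and anemia CD45+ replicate 3 was the highest of the 9 CD45+ libraries while the other pair of anemia libraries was the lowest. Csf3r rose by 5.07 ± 0.63 log2 units (SE, adjusted p = 2.9e-06) in tumor-bearing mice, by 4.52 ± 0.63 log2 units (SE, adjusted p = 1.1e-05) in mice with anemia and by 4.02 ± 0.63 log2 units (SE, adjusted p = 4.0e-05) in neonates. MDSC, at 73.6, 126 and 81.3, lay above every tumor CD45+ library.

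Csf2ra, the GM-CSF binding chain, stood at 62.01, 62.6 and 21.9 in tumor CD45+ cells, against 0.773, 0.689 and 0.774 in tumor CD45- cells. It was 15.7, 13.3 and 23.6 in anemia CD45+ cells and 54.5, 33.2 and 24.7 in neonatal CD45+ cells, against 0.467 to 1.02 in anemia CD45- and 0.614 to 2.16 in neonatal CD45- libraries. The groups did not overlap across the CD45 gate, and tumor CD45+ replicate 3 lay near the anemia values. The rise was 4.69 ± 0.39 log2 units (SE, adjusted p = 2.2e-08) in tumor-bearing, 3.35 ± 0.39 log2 units (SE, adjusted p = 1.2e-06) in anemic and 4.09 ± 0.39 log2 units (SE, adjusted p = 1.6e-07) in neonatal mice. Il3ra, the IL-3 binding chain, rose by 2.82 ± 0.27, 1.84 ± 0.27 and 2.60 ± 0.27 in the same order, and Il5ra, the IL-5 binding chain, by 1.32 ± 0.38, 2.72 ± 0.38 and 0.97 ± 0.38, the last with an adjusted p of 0.034. The neonatal Il5ra call was lost without replicate 3 (0.21) of neonatal CD45+ or replicate 1 (0.073), 2 (0.071) or 3 (0.065) of neonatal CD45-, under median-ratio scaling (0.062) and under quantile normalization (0.11). The anemia call of Il3ra did not pass under quantile normalization (0.092).

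Csf2rb encodes the common beta chain, through which GM-CSF, IL-3 and IL-5 signal, and Csf2rb2 is a mouse copy that serves IL-3. Both sit side by side on chromosome 15 in the RefSeq annotation. Their coding sequences are 95.2% identical over 2628 aligned bases, and 26.0% of all 50-base windows of Csf2rb also occur in Csf2rb2, so reads of one could have been counted for the other and the values of both are uncertain to that extent. How the authors treated reads with more than 1 match is not given in the sources used here. The stretch below is coding bases 934 to 1053 of both genes from the GENCODE annotation of GRCm38. It was chosen as an ungapped 120-base stretch with the median number of differences, 4, which are in capitals. Before the first of them lies a shared run longer than the 50-base windows.

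Csf2rb: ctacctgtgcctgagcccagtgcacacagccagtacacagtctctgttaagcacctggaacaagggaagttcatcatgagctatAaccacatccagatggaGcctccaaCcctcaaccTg
Csf2rb2: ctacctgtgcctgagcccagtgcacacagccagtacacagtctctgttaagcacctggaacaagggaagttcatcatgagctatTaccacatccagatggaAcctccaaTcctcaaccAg

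Csf2rb stood at 47.2, 49.1 and 17.7 in tumor CD45+ cells, against 0.262, 0.412 and 0.556 in tumor CD45- cells. It was 10.7, 6.40 and 16.1 in anemia CD45+ cells, against 0.144, 0.431 and 0.175 in anemia CD45- cells. Neonatal CD45+ libraries held 39.9, 24.5 and 43.7, against 1.59, 1.83 and 3.13 in neonatal CD45- libraries. No library crossed over at the CD45 gate, with rises of 4.66 ± 0.37 log2 units (SE, adjusted p = 1.6e-08), 3.20 ± 0.37 log2 units (SE, adjusted p = 1.5e-06) and 3.53 ± 0.37 log2 units (SE, adjusted p = 5.9e-07) in tumor, anemia and neonatal mice. Csf2rb2 was 9.89, 12.3 and 3.78 in tumor CD45+ cells, 2.28, 2.28 and 6.37 in anemia CD45+ cells and 10.1, 14.2 and 13.9 in neonatal CD45+ cells. The CD45- libraries held 0.570, 0.287 and 0.101 in tumor CD45- cells, 0.357, 0.464 and 0.0536 in anemia CD45- cells and 1.29, 0.984 and 4.30 in neonatal CD45- cells. It rose by 2.76 ± 0.42, 1.75 ± 0.42 and 2.24 ± 0.42 log2 units (SE), and the anemia call was lost under quantile normalization (0.26). MDSC held 76.3, 80.99 and 56.5 for Csf2rb and 33.1, 22.5 and 12.96 for Csf2rb2.

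Csf1r, the receptor for the macrophage factor M-CSF and IL-34, was 23.6, 21.9 and 162 in tumor CD45+ cells, against 1.62, 1.35 and 5.47 in tumor CD45- cells. In mice with anemia it was 23.9, 26.8 and 69.4 in CD45+ cells, against 1.66, 3.52 and 1.15 in CD45- cells. Neonatal CD45+ libraries held 223, 172 and 246, against 15.1, 10.3 and 9.68 in neonatal CD45- libraries, and were the highest of all groups. Tumor CD45+ replicate 3 stood far above the other tumor libraries, and its monocyte and macrophage markers without Csf1r, all 9 with a value of at least 1, summed to 952 against 264 and 303 in replicates 1 and 2. The part of monocyte-lineage cells in this value was not tested. Csf1r rose by 3.72 ± 0.61 log2 units (SE, adjusted p = 5.5e-05) in tumor, 3.63 ± 0.61 log2 units (SE, adjusted p = 7.5e-05) in anemia and 4.09 ± 0.61 log2 units (SE, adjusted p = 2.4e-05) in neonatal mice, and MDSC held 12.6, 9.18 and 17.3.

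**Figure D3:**
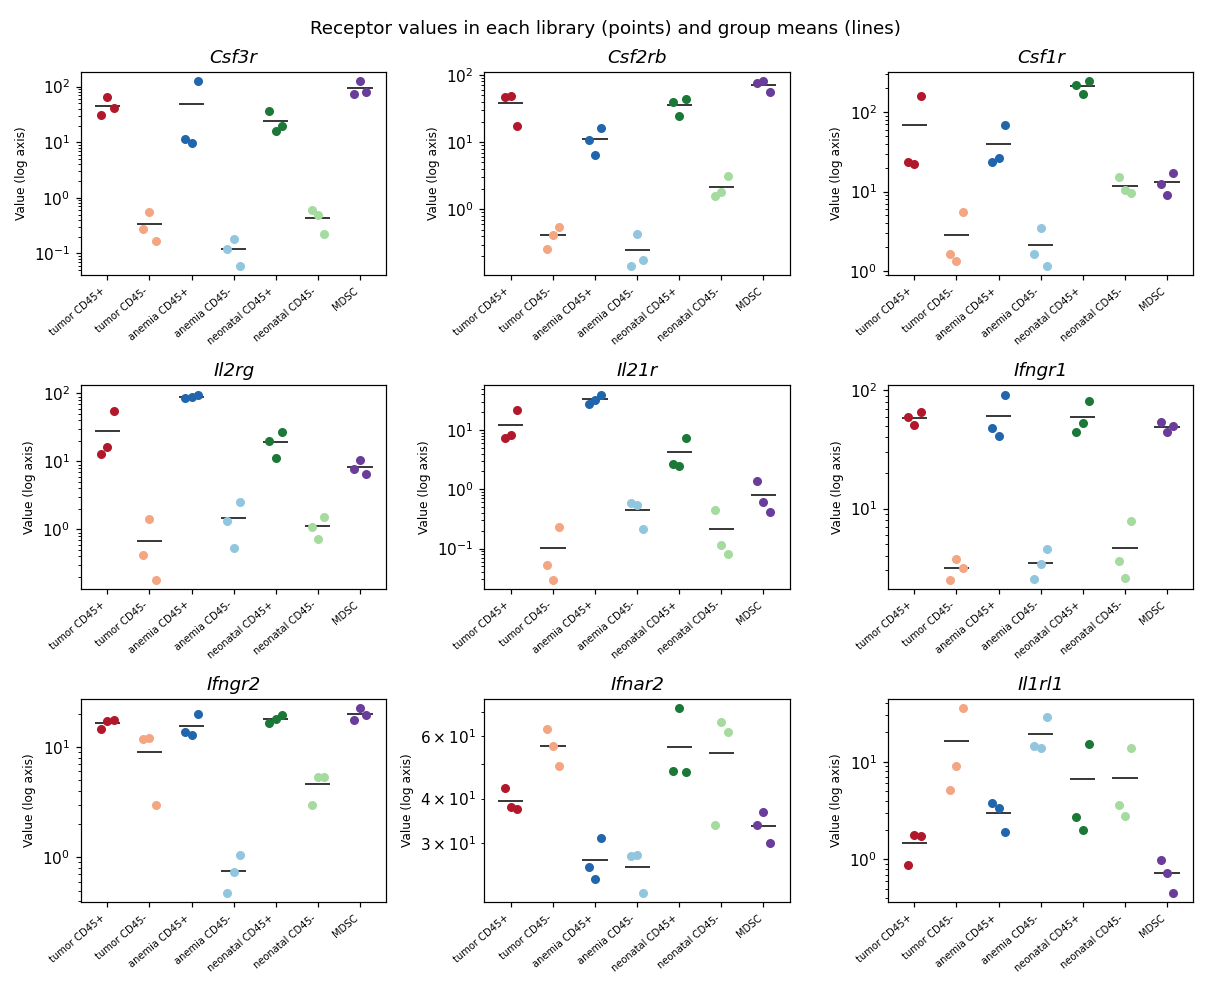
Value of 9 receptors (panels, log axis) in each of the 21 libraries (points) with the group mean (line), for 7 groups of 3 libraries along the horizontal axis. Each CD45- library lies below every CD45+ library of the same kind of mouse for Csf3r, Csf2rb, Csf1r, Il2rg, Il21r and Ifngr1. In CD45- libraries Ifnar2 lies between 21.7 and 65.6, and Il1rl1 is higher there in tumor-bearing mice and mice with anemia.

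Receptors of the IL-1 and IL-18 class split by direction in tumor-bearing mice and mice with anemia, where 4 of the 7 rose and 2 fell. In neonates 4 rose and 0 fell. These counts lie close to the 50.2%, 47.4% and 49.6% of all tested genes that rose in tumor, anemia and neonatal mice. Il1r2, Il1r1, Il1rl2, Il1rl1, Il18r1 and Il18rap follow each other on mouse chromosome 1 with no other coding gene between them in the RefSeq annotation, and Il1rap lies elsewhere. Il1r2 encodes a decoy that binds IL-1 without signalling. It stood at 132, 164 and 42.8 in tumor CD45+ cells, against 0.642, 0.597 and 0.0599 in tumor CD45- cells. Values were 19.2, 14.2 and 123 in anemia CD45+ cells and 37.97, 26.2 and 28.2 in neonatal CD45+ cells, against 0.0353 to 0.159 in anemia CD45- and 0.0433 to 0.356 in neonatal CD45- libraries. The libraries on each side of the gate were far apart, and anemia CD45+ replicate 3 and tumor CD45+ replicate 3 each stood apart from the other libraries of its group. It rose by 6.13 ± 0.58 log2 units (SE, adjusted p = 1.3e-07), 4.93 ± 0.58 log2 units (SE, adjusted p = 1.8e-06) and 4.73 ± 0.58 log2 units (SE, adjusted p = 3.3e-06) in tumor, anemia and neonatal mice, and MDSC held 238, 298 and 331.

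Il1rl1 encodes ST2, the receptor for IL-33, known on mast cells, innate lymphoid cells and regulatory T cells. It ran the other way at 0.868, 1.79 and 1.74 in tumor CD45+ cells, against 5.07, 8.96 and 35.3 in tumor CD45- cells. It was 3.75, 3.32 and 1.89 in anemia CD45+ cells, against 14.3, 13.9 and 28.9 in anemia CD45- cells. In both kinds of mice every CD45- library lay above every CD45+ library, and Il1rl1 fell by 2.42 ± 0.66 log2 units in tumor-bearing mice (SE, adjusted p = 0.0046) and by 2.28 ± 0.66 in mice with anemia (SE, adjusted p = 0.0070). Neonatal libraries overlapped, at 2.69, 2.02 and 15.1 in neonatal CD45+ cells and 3.65, 2.81 and 13.9 in neonatal CD45- cells, and did not pass the test (adjusted p = 0.82). MDSC, at 0.988, 0.718 and 0.453, were among the lowest. Mast cell, basophil and eosinophil markers, 8 in all, summed to 0.392 to 4.35 in tumor CD45- and 0.362 to 0.750 in anemia CD45- libraries, with Mcpt8 and Epx listed at 0 in all 3 of the last. Their sums were 33.9 to 121 in tumor CD45+ and 5.47 to 23.95 in anemia CD45+ libraries. In neonates, where Il1rl1 overlapped across the gate, they were 792 to 1513 in CD45+ and 3.52 to 5.40 in CD45- libraries. The part of mast cells, innate lymphoid cells or regulatory T cells in the Il1rl1 values was not tested.

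Il1r1, the signalling receptor for IL-1, had the same direction at 1.85, 1.46 and 0.280 in anemia CD45+ cells, against 6.96, 6.51 and 2.90 in anemia CD45- cells, with no overlap and a fall by 1.57 ± 0.34 log2 units (SE, adjusted p = 7.8e-04). In tumor-bearing mice it was 1.89, 1.88 and 1.23 in CD45+ cells, against 3.66, 3.03 and 6.49 in CD45- cells, and fell by 0.97 ± 0.34 (adjusted p = 0.020), a call that was lost without replicate 3 (0.068) of tumor CD45+ or replicate 3 (0.098) of tumor CD45-. Neonates held 0.452, 0.773 and 1.08 in CD45+ and 2.33, 1.32 and 2.05 in CD45- cells, with an adjusted p of 0.078. Il1rl2, the IL-36 receptor, was 4.25, 4.91 and 1.88 in tumor CD45+ and 1.21, 1.77 and 3.50 in tumor CD45- cells and passed in none of the 3 comparisons.

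In tumor-bearing mice and mice with anemia Il1rl1 and Il1r2, members of one gene run, lay on opposite sides of the CD45 gate. The 250 bases before their annotated starts are therefore shown, from RefSeq on GRCm38.p6, plus strand. The letters GATAA on either strand (TTATC on the other) are in capitals. GATAA is the core of the motif bound by GATA factors such as Gata1. It was searched in all such windows and occurred in 22.6% of 32851 windows, at least 2 times in 4.28%. It also occurred in 19 of the 60 windows found for 51 of the receptors (31.7%). The first Il1rl1 window, chr1:40429320-40429569, held 2 matches, the second, chr1:40439379-40439628, held 1 and the Il1r2 window, chr1:40085843-40086092, held 1. The letters AGGAAGT and GATAAG were searched too. Each occurred in 13.3% of the receptor windows, against 7.69% and 6.55% of all windows, and AGGAAGT had no match in the windows shown. GATAAG had 2 matches in the first Il1rl1 window and no match in the others shown. At least 2 occurred in 0.353% of all windows, and the Il9r window also held 2. A match describes the letters and shows no binding.

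Il1rl1, first start: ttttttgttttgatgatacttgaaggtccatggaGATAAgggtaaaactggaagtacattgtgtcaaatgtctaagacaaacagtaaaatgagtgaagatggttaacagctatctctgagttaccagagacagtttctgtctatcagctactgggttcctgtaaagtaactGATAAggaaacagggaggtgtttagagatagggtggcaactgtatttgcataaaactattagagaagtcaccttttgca
Il1rl1, second start: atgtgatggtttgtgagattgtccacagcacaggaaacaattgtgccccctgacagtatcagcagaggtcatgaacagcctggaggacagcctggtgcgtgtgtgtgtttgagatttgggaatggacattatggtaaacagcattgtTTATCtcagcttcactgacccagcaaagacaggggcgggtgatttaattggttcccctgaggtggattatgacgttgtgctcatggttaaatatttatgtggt
Il1r2: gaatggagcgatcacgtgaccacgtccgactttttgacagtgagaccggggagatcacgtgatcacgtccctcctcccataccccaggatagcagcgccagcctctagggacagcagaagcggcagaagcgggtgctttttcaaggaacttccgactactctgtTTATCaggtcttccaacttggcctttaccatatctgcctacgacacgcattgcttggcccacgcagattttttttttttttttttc

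Both IL-18 receptor chains rose in CD45+ cells in each kind of mouse. Il18rap, the accessory chain, stood at 53.3, 41.8 and 22.2 in tumor CD45+ cells, against 0.211, 0.262 and 0.0301 in tumor CD45- cells. It was 8.80, 5.78 and 14.9 in anemia CD45+ cells and 17.8, 20.2 and 20.9 in neonatal CD45+ cells, against 0.0235 to 0.11997 in anemia CD45- and 0.128 to 0.529 in neonatal CD45- libraries. Tumor CD45+ libraries were the highest outside MDSC, which held 57.2, 59.3 and 81.6, and no CD45- library came near. The rise was 5.02 ± 0.32 log2 units (SE, adjusted p = 1.0e-09) in tumor, 3.24 ± 0.32 log2 units (SE, adjusted p = 1.8e-07) in anemia and 4.03 ± 0.32 log2 units (SE, adjusted p = 2.0e-08) in neonatal mice. Il18r1, the binding chain, rose by 2.45 ± 0.28, 2.62 ± 0.28 and 1.48 ± 0.28, and Il1rap, the accessory chain of Il1r1 and Il1rl1, by 2.63 ± 0.35, 1.59 ± 0.35 and 1.43 ± 0.35. Under quantile normalization Il1rap did not pass in anemia (0.38) or neonatal mice (0.32).

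Of the 16 chemokine receptors 10 were tested across the CD45 gate, and 3 rose in tumor-bearing mice (Cxcr2, Ccr2 and Ccr6), 7 in mice with anemia and 3 in neonates, while 50.2%, 47.4% and 49.6% of all tested genes rose. The count was below that share in tumor-bearing mice and neonates. Cxcr2 and Ccr2 rose in all 3 kinds of mice, and Ccr6, Cxcr3, Cxcr5 and Cxcr6 were among those that rose in mice with anemia. Of the 16, 12 have an annotated transcript whose coding sequence lies in 1 exon. Cxcr2, the receptor of neutrophils for Cxcl1 and Cxcl2, stood at 23.7, 71.1 and 34.9 in tumor CD45+ cells, against 0.138, 0.353 and 0.0341 in tumor CD45- cells. In mice with anemia it was 3.77, 2.21 and 45.96 in CD45+ cells, against 0.0258, 0.0696 and 0.0373 in CD45- cells. Neonatal CD45+ libraries held 8.26, 7.68 and 15.9, against 0.0558, 0.0910 and 0.0849 in neonatal CD45- libraries. Groups were apart at the gate, anemia CD45+ replicate 3 again stood far above its group, and Cxcr2 rose by 5.10 ± 0.67 log2 units (SE, adjusted p = 5.3e-06), 3.10 ± 0.67 log2 units (SE, adjusted p = 7.4e-04) and 3.36 ± 0.67 log2 units (SE, adjusted p = 3.7e-04) in tumor, anemia and neonatal mice. Cxcr1, its neighbour with 72.0% coding identity and no shared 50-base window, was listed at 0 in 12 libraries and peaked at 0.537 in an MDSC library, against 63.01 to 194 for Cxcr2 in MDSC.

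Cxcr4, the receptor for Cxcl12 that holds precursors in the bone marrow, spread widely within groups. It was 10.4, 12.6 and 18.4 in tumor CD45+ cells, against 50.1, 37.9 and 4.08 in tumor CD45- cells. Anemia libraries held 11.003, 8.90 and 19.8 for CD45+ and 1.79, 60.3 and 29.2 for CD45- cells, and neonatal libraries 28.8, 5.17 and 8.69 for CD45+ and 23.6, 0.964 and 1.29 for CD45- cells. Within anemia CD45- cells alone the libraries ran from 1.79 to 60.3, CD45+ and CD45- libraries overlapped in each kind of mouse, and no comparison of Cxcr4 passed. MDSC spread likewise, at 83.7, 3.61 and 12.8.

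Ccr2, the receptor that brings monocytes out of the marrow, was 1.43, 2.38 and 8.79 in tumor CD45+ cells, against 0.0610 to 0.160 in tumor CD45- libraries. It was 6.40, 3.17 and 7.81 in anemia CD45+ cells, against 0.0241 to 0.203 in anemia CD45- libraries, and 2.16, 0.727 and 1.82 in neonatal CD45+ cells, against 0.0171 to 0.199 in neonatal CD45- libraries. Each CD45+ library lay above the CD45- libraries of its kind of mouse, with rises of 1.97 ± 0.39 log2 units (SE, adjusted p = 3.5e-04), 2.57 ± 0.39 log2 units (SE, adjusted p = 2.9e-05) and 1.16 ± 0.39 log2 units (SE, adjusted p = 0.017), the neonatal one lost without replicate 1 (0.069) or 3 (0.054) of neonatal CD45+, under median-ratio scaling (0.059) and under quantile normalization (0.20). Of its 50-base coding windows 10.3% also occur in another gene, so its value is uncertain to that extent. Ccr6, the receptor for Ccl20 on B cells and T cell subsets, was 2.44, 2.24 and 9.13 in tumor CD45+ cells, 17.9, 15.9 and 14.9 in anemia CD45+ cells and 0.0714, 0.0383 and 2.29 in neonatal CD45+ cells, against at most 0.164 in any CD45- library. It rose by 2.11 ± 0.40 in tumor-bearing mice and 3.98 ± 0.40 in mice with anemia and did not pass in neonates (adjusted p = 0.21). The anemia calls of Cxcr3 (1.58 ± 0.60, adjusted p = 0.032) and Cxcr5 (1.42 ± 0.56, adjusted p = 0.038) were lost when 1 library was left out, Cxcr3 without replicate 2 (0.24) of anemia CD45+ or replicate 1 (0.076), 2 (0.058) or 3 (0.068) of anemia CD45- and Cxcr5 without replicate 2 (0.089) or 3 (0.12) of anemia CD45+ or replicate 1 (0.072), 2 (0.055) or 3 (0.11) of anemia CD45-. Both were also lost under quantile normalization (0.11 and 0.64), and Cxcr5 under median-ratio scaling (0.13).

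Same-numbered libraries deviated together across the CD45 gate, but not always more than other-numbered ones. In tumor-bearing mice and mice with anemia the highest correlation between other numbers (0.139 and 0.114) exceeded the lowest between same numbers (0.110 and 0.109). A replicate block added Cx3cr1 in mice with anemia (adjusted p = 0.030, against 0.083 without the block) and Cxcr5 in neonates (0.039 against 0.059). Cx3cr1, the fractalkine receptor of monocytes and NK cells, was 0.0604, 4.33 and 13.2 in anemia CD45+ cells, against 0.234, 0.272 and 0.0940 in anemia CD45- cells, with replicate 1 below its group. Ccr3, the eotaxin receptor, did not pass in any of the 3 comparisons, at 3.40, 3.83 and 1.40 in tumor CD45+ and 0.487, 0.779 and 4.05 in tumor CD45- cells.

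All 8 chains grouped here as the common gamma family rose across the gate in tumor-bearing mice and in mice with anemia, with 6 rising in neonates. The group includes Il13ra1, which pairs with Il4ra and not with the common gamma chain. In tumor, anemia and neonatal mice 50.2%, 47.4% and 49.6% of all tested genes rose. Il2rg, the common gamma chain shared by the receptors for IL-2, IL-4, IL-7, IL-9, IL-15 and IL-21, stood at 12.98, 16.4 and 55.03 in tumor CD45+ cells, against 0.422, 1.42 and 0.183 in tumor CD45- cells. It was 84.5, 89.6 and 96.1 in anemia CD45+ cells, against 1.34, 0.532 and 2.53 in anemia CD45- cells, and 19.9, 11.3 and 26.8 in neonatal CD45+ cells, against 1.07, 0.726 and 1.52 in neonatal CD45- cells. The 3 anemia CD45+ libraries were close together and above all others, while tumor CD45+ replicate 3 stood well above replicates 1 and 2. Il2rg rose by 3.90 ± 0.45 log2 units (SE, adjusted p = 1.4e-06), 5.29 ± 0.45 log2 units (SE, adjusted p = 4.3e-08) and 3.21 ± 0.45 log2 units (SE, adjusted p = 1.4e-05) in tumor, anemia and neonatal mice, and MDSC held 7.77, 10.6 and 6.60.

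Il21r, the IL-21 receptor of lymphocytes, followed at 7.33, 8.19 and 21.4 in tumor CD45+ cells, 27.1, 31.9 and 39.5 in anemia CD45+ cells and 2.67, 2.50 and 7.38 in neonatal CD45+ cells, against at most 0.579 in any CD45- library. It was highest in anemia CD45+ libraries and rose by 3.44 ± 0.36 log2 units (SE, adjusted p = 4.3e-07) in tumor, 4.55 ± 0.36 log2 units (SE, adjusted p = 1.8e-08) in anemia and 1.99 ± 0.36 log2 units (SE, adjusted p = 1.8e-04) in neonatal mice. Il2rb, the signalling chain shared by IL-2 and IL-15, was 1.42, 4.08 and 7.93 in tumor CD45+ cells, 20.5, 22.3 and 13.3 in anemia CD45+ cells and 2.99, 3.02 and 8.51 in neonatal CD45+ cells, against at most 0.283 in CD45- libraries. It rose by 2.19 ± 0.39, 4.04 ± 0.39 and 2.28 ± 0.39 log2 units in the same order. Il9r, the IL-9 receptor, rose by 2.08 ± 0.39 in tumor-bearing mice and 3.22 ± 0.39 in mice with anemia. Il2ra, the alpha chain CD25 of the IL-2 receptor, rose by 0.88 ± 0.29 and 2.09 ± 0.29 in the same order. Neither passed in neonates (adjusted p = 0.39 and 0.13). The tumor call of Il2ra (adjusted p = 0.014) was lost without replicate 3 (0.086) of tumor CD45+ and under quantile normalization (0.070).

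Il4ra, which binds IL-4 and IL-13, was spread more evenly over the CD45+ groups, at 22.4, 40.6 and 28.7 in tumor CD45+ cells, 29.4, 26.98 and 32.7 in anemia CD45+ cells and 11.2, 12.2 and 19.4 in neonatal CD45+ cells. The matching CD45- libraries held 0.434, 0.530 and 0.435 in tumor CD45- cells, 0.181, 0.530 and 0.168 in anemia CD45- cells and 1.42, 1.23 and 1.78 in neonatal CD45- cells. All CD45- libraries lay far below, those of neonates least so, and the smallest fold of the 3 was that of neonates at 2.59 ± 0.25 log2 units (SE, adjusted p = 2.5e-07). MDSC held 27.4, 31.6 and 42.5. Il13ra1, which pairs with Il4ra, rose by 3.09 ± 0.29, 2.11 ± 0.29 and 1.57 ± 0.29 in tumor, anemia and neonatal mice, and Il15ra, the IL-15 presenting chain, by 2.26 ± 0.32, 1.61 ± 0.32 and 1.69 ± 0.32. Under quantile normalization Il15ra did not pass in anemia (0.30) or neonatal mice (0.10), nor Il13ra1 in neonates (0.24).

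Among the 5 tested IL-6 and IL-12 class chains, 5, 5 and 4 rose in tumor, anemia and neonatal mice, against 50.2%, 47.4% and 49.6% of all tested genes. Il6ra, the IL-6 binding chain, was 6.82, 7.19 and 9.25 in tumor CD45+ cells and 7.83, 9.64 and 8.68 in anemia CD45+ cells. It was 13.4, 12.8 and 12.98 in neonatal CD45+ cells. In tumor, anemia and neonatal CD45- libraries it was 0.103 to 0.227, 0.138 to 0.259 and 0.298 to 0.557. It rose by 2.90 ± 0.19 log2 units (SE, adjusted p = 1.5e-09), 3.01 ± 0.19 log2 units (SE, adjusted p = 1.4e-09) and 3.29 ± 0.19 log2 units (SE, adjusted p = 9.0e-10). Il27ra, the IL-27 receptor of T cells, was 0.759, 1.90 and 6.19 in tumor CD45+ cells, 15.7, 23.4 and 8.02 in anemia CD45+ cells and 0.653, 0.327 and 1.61 in neonatal CD45+ cells, against at most 0.273 in CD45- libraries. Anemia CD45+ libraries were the highest, and it rose by 1.67 ± 0.41 log2 units (SE, adjusted p = 0.0021) in tumor-bearing mice and 3.70 ± 0.41 log2 units (SE, adjusted p = 8.0e-07) in mice with anemia and did not pass in neonates (0.19). Il12rb1, shared by IL-12 and IL-23, and Il12rb2, the second IL-12 chain, rose by 1.33 ± 0.17 and 1.53 ± 0.23 in mice with anemia. Without replicate 3 of tumor CD45+ or replicate 1 or 2 of anemia CD45+, Il12rb1 reached 1 in too few libraries and was not tested in any comparison. The tumor call of Il12rb2 (0.65 ± 0.23) was lost without replicate 3 (0.11) of tumor CD45+ or replicate 2 (0.056) of tumor CD45- and under quantile normalization (0.38).

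Il11ra1, the IL-11 receptor, rose by 2.52 ± 0.26, 1.59 ± 0.26 and 1.83 ± 0.26 in tumor, anemia and neonatal mice, the anemia call being lost under quantile normalization (0.14). Its coding sequence is 99.0% identical to that of Il11ra2 and shares 59.2% of its 50-base windows, so its value may include reads of the copy, which stayed under 1 in every library. Il17ra, the signalling chain for IL-17, was the IL-17 receptor that could be tested. It was 37.7, 28.4 and 30.3 in tumor CD45+ cells, against 3.96, 3.80 and 3.38 in tumor CD45- cells. Anemia CD45+ libraries held 19.05, 17.9 and 23.5 and neonatal CD45+ libraries 22.96, 20.5 and 22.5, against 1.17 to 3.37 and 3.03 to 7.99 in the CD45- libraries, with no overlap and rises of 2.81 ± 0.30, 2.64 ± 0.30 and 2.01 ± 0.30 log2 units (SE).

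Interferon receptor chains did not share one pattern. Ifnar2, Il10rb, Ifnar1 and Ifngr2 lie next to each other on chromosome 16 in that order in the RefSeq annotation. Type I interferon receptor chains were present on both sides of the gate. Ifnar2 was 42.8, 37.99 and 37.5 in tumor CD45+ cells, against 62.8, 56.3 and 49.4 in tumor CD45- cells, and passed in none of the 3 comparisons (adjusted p = 0.11, 0.86 and 0.78 in tumor, anemia and neonatal mice). It was 25.7, 23.7 and 30.9 in anemia CD45+ cells and 47.8, 71.9 and 47.5 in neonatal CD45+ cells, against 27.6, 27.7 and 21.7 in anemia CD45- cells and 33.6, 65.6 and 61.5 in neonatal CD45- cells. In tumor-bearing mice every CD45- library was above every CD45+ library, while in the other mice the libraries overlapped. Ifnar1 was 15.5, 15.7 and 23.1 in tumor CD45+ and 15.2, 17.7 and 17.999 in tumor CD45- cells, 21.7, 25.8 and 33.4 in anemia CD45+ cells and 14.6, 15.82 and 8.80 in anemia CD45- cells, and 16.1, 16.1 and 25.6 in neonatal CD45+ cells and 11.6, 10.4 and 25.4 in neonatal CD45- cells. It passed in mice with anemia alone (1.01 ± 0.32, adjusted p = 0.012), a call lost without replicate 3 (0.057) of anemia CD45+ or replicate 3 (0.055) of anemia CD45-, under median-ratio scaling (0.73) and under quantile normalization (0.13).

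Ifngr1, the ligand-binding chain, was 59.6, 51.4 and 65.7 in tumor CD45+ cells, 48.4, 41.3 and 92.02 in anemia CD45+ cells and 44.3, 52.5 and 81.6 in neonatal CD45+ cells, against 2.51, 3.76 and 3.12 in tumor CD45- cells, 2.52, 3.41 and 4.52 in anemia CD45- cells and 3.60, 2.57 and 7.87 in neonatal CD45- cells. It was well above the CD45- libraries in all of them, with rises of 3.86 ± 0.35 log2 units (SE, adjusted p = 7.0e-08), 3.72 ± 0.35 log2 units (SE, adjusted p = 1.2e-07) and 3.47 ± 0.35 log2 units (SE, adjusted p = 3.3e-07). Ifngr2, the second chain, was 14.6, 17.1 and 17.6 in tumor CD45+ cells, 13.6, 12.8 and 19.9 in anemia CD45+ cells and 16.3, 18.1 and 19.3 in neonatal CD45+ cells, against 11.8, 12.1 and 2.99 in tumor CD45- cells, 0.475, 0.732 and 1.04 in anemia CD45- cells and 3.005, 5.34 and 5.39 in neonatal CD45- cells. Tumor CD45- replicates 1 and 2 came close to the CD45+ libraries, replicate 3 lay lower, and anemia CD45- libraries were the lowest. Ifngr2 rose by 3.22 ± 0.36 log2 units (SE, adjusted p = 9.9e-07) in anemia and 1.79 ± 0.36 log2 units (SE, adjusted p = 4.6e-04) in neonatal mice, the neonatal call being lost under median-ratio scaling (0.067). In tumor-bearing mice it rose by 0.99 ± 0.36 log2 units (SE, adjusted p = 0.026), a call lost without replicate 2 (0.060) or 3 (0.066) of tumor CD45+ or replicate 3 (0.18) of tumor CD45-, under median-ratio scaling (0.87), under quantile normalization (0.55) and with haemoglobin genes left out (0.13).

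Il10ra, the IL-10 binding chain, was 4.14, 4.71 and 18.6 in tumor CD45+ cells, 19.6, 19.2 and 23.1 in anemia CD45+ cells and 7.87, 8.10 and 12.8 in neonatal CD45+ cells, against at most 0.552 in CD45- libraries, and rose by 2.83 ± 0.37, 3.96 ± 0.37 and 2.96 ± 0.37 log2 units. Its partner Il10rb, also used by IL-22 and the lambda interferons, was 26.6, 23.03 and 37.6 in tumor CD45+ cells, against 10.7, 12.01 and 12.9 in tumor CD45- cells. It was 17.5, 19.98 and 37.5 in anemia CD45+ and 10.1, 9.23 and 6.71 in anemia CD45- cells, and 16.3, 12.9 and 34.6 in neonatal CD45+ and 5.95, 5.41 and 15.9 in neonatal CD45- cells. Only the neonatal groups overlapped. Il10rb rose by 1.20 ± 0.39 log2 units (SE, adjusted p = 0.014), 1.37 ± 0.39 log2 units (SE, adjusted p = 0.0067) and 1.17 ± 0.39 log2 units (SE, adjusted p = 0.017). These calls were lost under median-ratio scaling (0.57, 0.28 and 0.54) and quantile normalization (0.16, 0.10 and 0.37). The tumor call was also lost without replicate 3 (0.064) of tumor CD45+, and the neonatal call without replicate 3 (0.11) of neonatal CD45+ or replicate 1 (0.074) or 2 (0.081) of neonatal CD45-. Il20rb, a chain of the IL-20 and IL-24 receptors, rose by 1.68 ± 0.24, 0.61 ± 0.24 and 1.53 ± 0.24 in tumor, anemia and neonatal mice, and the sign of the anemia change turned under quantile normalization (-0.21). It did not pass in tumor-bearing mice (0.20) or neonates (0.052) under quantile normalization, nor in anemia under median-ratio scaling (0.24) or without replicate 1 (0.069) or 3 (0.097) of anemia CD45+ or replicate 1 (0.13) or 2 (0.063) of anemia CD45-.

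Both signalling receptors for TGF-beta rose in CD45+ cells of all mice. Tgfbr1, the type I kinase, was 10.001, 9.82 and 17.1 in tumor CD45+ cells, 7.83, 10.7 and 22.3 in anemia CD45+ cells and 11.4, 17.1 and 16.4 in neonatal CD45+ cells, against 1.17 to 2.54, 1.57 to 1.99 and 1.61 to 2.13 in the CD45- libraries. Tgfbr2, the type II kinase that binds the ligand, was 9.35, 8.65 and 24.7 in tumor CD45+ cells, 20.05, 23.9 and 23.2 in anemia CD45+ cells and 10.4, 9.90 and 12.9 in neonatal CD45+ cells, against 0.450 to 0.465, 0.294 to 1.11 and 0.999 to 1.93. No library of either gene crossed the gate, and tumor CD45+ replicate 3 was the highest of its group for both. Tgfbr1 rose by 2.24 ± 0.32, 2.28 ± 0.32 and 2.49 ± 0.32 and Tgfbr2 by 3.23 ± 0.31, 3.79 ± 0.31 and 2.30 ± 0.31 log2 units in tumor, anemia and neonatal mice (SE). Tgfbrap1, which binds the type I receptor, rose by 1.06 ± 0.30, 0.97 ± 0.30 and 1.44 ± 0.30, but under quantile normalization the sign turned in tumor (-0.12) and anemia (-0.14). Its calls in tumor (0.28) and anemia (0.38) were lost under median-ratio scaling and its neonatal call under quantile normalization (0.21). Its anemia call was lost without replicate 3 (0.051) of anemia CD45+ or replicate 1 (0.063) of anemia CD45-. Tgfbr3, the co-receptor betaglycan, passed in mice with anemia alone (1.13 ± 0.41, adjusted p = 0.026), a call lost without replicate 1 (0.076) or 2 (0.094) of anemia CD45+ or replicate 1 (0.11) or 2 (0.077) of anemia CD45- and with its sign turned under quantile normalization (-0.03). Tgfbr3l, a gene of betaglycan-like sequence, rose by 1.03 ± 0.21 in anemia and 0.71 ± 0.21 in neonatal mice, and both calls were lost under quantile normalization (0.48 and 0.55), the neonatal one also without replicate 2 (0.0505) of neonatal CD45+.

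Tumor CD45+ cells differed from anemia CD45+ cells in 18 receptors. Of 50 tested receptors, 7 rose and 11 fell, while 5.82% of all tested genes rose and 4.91% fell (10.7% together). The median log2 fold change was -0.03 for the receptors and -0.03 for all genes. Those that rose were Cxcr2, Csf2ra, Csf2rb, Il13ra1, Il18rap, Il20rb and Il1rl2. Those that fell were Ccr6, Cxcr6, Il5ra, Il10ra, Il12rb2, Il27ra, Il2ra, Il2rb, Il2rg, Il9r and Il21r, of which 5 belong to the common gamma family. Neutrophil marker sums in tumor CD45+ libraries were 28030.1, 29271 and 11102, against 839, 471 and 2709 in anemia CD45+ libraries. T cell marker sums, over the 7 of 8 in the table, were 27.2, 41.4 and 135, against 283, 281 and 194, all 7 reaching 1 in each library. B cell sums were 137, 174 and 553, against 776, 936 and 819. The part of these cells in the receptor differences was not tested.

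Among the 18, Il27ra had the largest difference, -2.21 ± 0.41 log2 units (SE, adjusted p = 0.0020), at the values given above, with every tumor CD45+ library below every anemia CD45+ library. Il2rb was also lower in each tumor CD45+ library and fell by 2.01 ± 0.39 log2 units (adjusted p = 0.0028). Cxcr6, the receptor for Cxcl16 on T and NK cells, was 0.403, 0.205 and 1.72 in tumor CD45+ cells, against 6.05, 5.58 and 2.82 in anemia CD45+ cells, a change of -1.76 ± 0.37 log2 units (SE, adjusted p = 0.0046). Il18rap and Il20rb were higher in every tumor CD45+ library, by 1.89 ± 0.32 (adjusted p = 8.6e-04) and 1.21 ± 0.24 (adjusted p = 0.0029). Il20rb was 5.68, 3.50 and 2.15 in tumor CD45+ cells, against 0.948, 0.824 and 1.13 in anemia CD45+ cells. These 5 passed in each of the 18 fits that left out a library, and the other 13 did not.

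Csf2rb was higher in tumor CD45+ cells by 1.64 ± 0.37 log2 units (SE, adjusted p = 0.0080) without overlap, and was lost without replicate 1 (0.061) or 2 (0.059) of tumor CD45+ or replicate 2 (0.058) of anemia CD45+. The common gamma chain Il2rg was lower by 1.93 ± 0.45 log2 units (adjusted p = 0.010) and was lost without replicate 1 (0.082) or 2 (0.065) of tumor CD45+. Ccr6 was lower by 1.83 ± 0.40 (adjusted p = 0.0069), lost without replicate 1 (0.051) or 2 (0.051) of tumor CD45+, and Il21r was lower by 1.48 ± 0.36 (adjusted p = 0.013), lost without replicate 1 (0.092) or 2 (0.079) of tumor CD45+. Csf2ra (1.32 ± 0.39, adjusted p = 0.035) overlapped between the groups and was lost without replicate 1 (0.20) or 2 (0.19) of tumor CD45+ or replicate 1 (0.11) or 2 (0.14) of anemia CD45+ and under median-ratio scaling (0.063). Cxcr2 (2.16 ± 0.67, adjusted p = 0.046) overlapped too and passed in only 2 of the 18 fits, those without anemia CD45+ replicate 3 or neonatal CD45+ replicate 3, with adjusted p up to 0.25 in the rest. The count of receptors that passed was 5 without tumor CD45+ replicate 1, 6 without tumor CD45+ replicate 2, 11 without anemia CD45+ replicate 1 and 10 without anemia CD45+ replicate 2, and 24 without tumor CD45+ replicate 3. It was 27, 12 higher and 15 lower and 18 of them the same, when replicate 3 of both groups was left out together. With a pseudocount of 0.1 it was 7 and with 0.01 it was 0. By median-ratio scaling 5 were higher and 11 lower, and 4 and 11 with haemoglobin genes left out, where the median of all genes moved to -0.18.

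Of the other receptors, Il5ra (-1.41 ± 0.38, adjusted p = 0.021) was lost without replicate 1 (0.16) or 2 (0.11) of tumor CD45+ or replicate 1 (0.059) or 3 (0.070) of anemia CD45+, and Il10ra (-1.38 ± 0.37, adjusted p = 0.022) without replicate 1 (0.16) or 2 (0.14) of tumor CD45+ or replicate 1 (0.061), 2 (0.060) or 3 (0.061) of anemia CD45+. Il9r (-1.33 ± 0.39, adjusted p = 0.036) was lost without replicate 1 (0.24) or 2 (0.18) of tumor CD45+ or replicate 1 (0.15) or 2 (0.076) of anemia CD45+, Il2ra (-1.21 ± 0.29, adjusted p = 0.011) without replicate 1 (0.081) or 2 (0.057) of tumor CD45+ or replicate 2 (0.068) of anemia CD45+ and Il12rb2 (-1.02 ± 0.23, adjusted p = 0.0070) without replicate 1 (0.056) of tumor CD45+. Il1rl2 (1.11 ± 0.31, adjusted p = 0.027) was lost without replicate 1 (0.13) or 2 (0.15) of tumor CD45+ or replicate 1 (0.057), 2 (0.061) or 3 (0.099) of anemia CD45+. Il13ra1 was 7.53, 10.5 and 7.47 in tumor CD45+ cells, against 2.85, 2.49 and 7.66 in anemia CD45+ cells, which overlapped, and its change of 0.95 ± 0.29 (adjusted p = 0.044) was lost without replicate 1 (0.096) or 2 (0.20) of tumor CD45+, replicate 1 (0.19) or 2 (0.22) of anemia CD45+, replicate 1 (0.056) of neonatal CD45+, replicate 1 (0.056), 2 (0.058) or 3 (0.053) of tumor CD45-, replicate 1 (0.056) or 2 (0.059) of anemia CD45- or replicate 1 (0.058), 2 (0.054) or 3 (0.052) of neonatal CD45-.

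**Figure D4:**
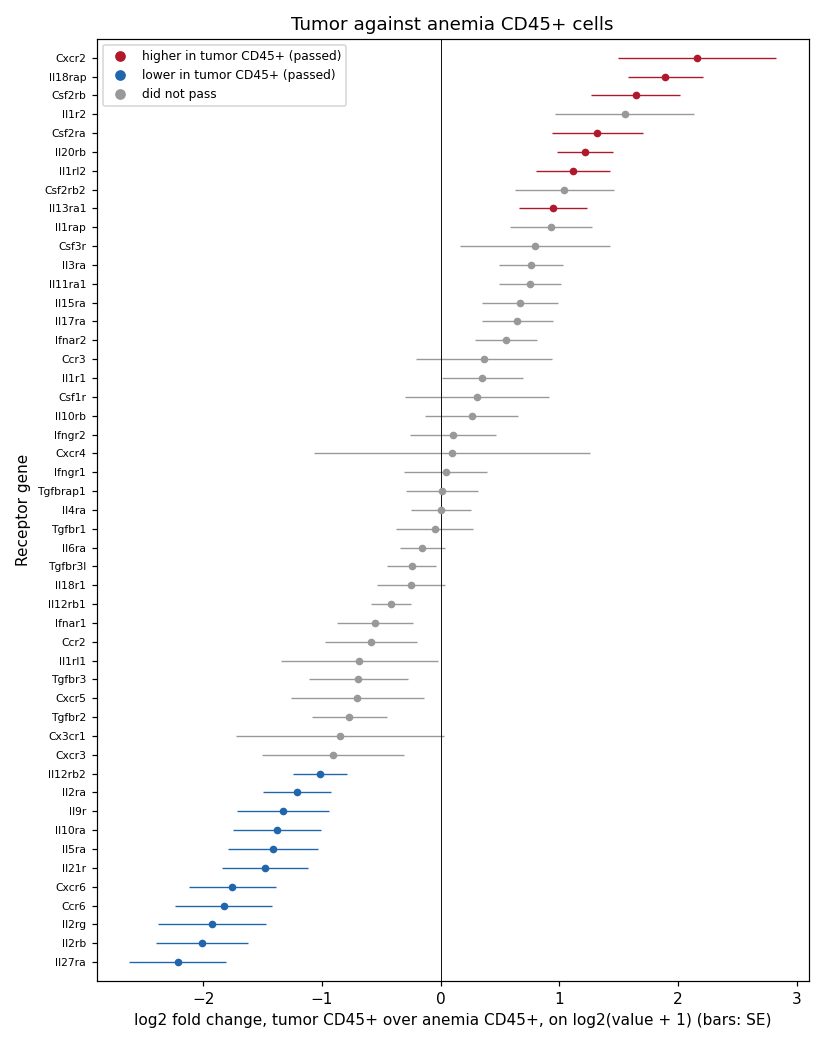
Log2 fold change of tumor CD45+ over anemia CD45+ cells on log2(value + 1) for 49 tested receptors (rows), with the standard error of the limma fit as bars. Coloured points passed at an adjusted p below 0.05, 7 to the right of 0 and 11 to the left, and the lowest points are Il27ra, Il2rb and Il2rg.

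Tumor and neonatal CD45+ cells differed in 8 receptors, of 50 tested, with 5 higher and 3 lower in the tumor group, against 2.20% and 4.41% of all tested genes (6.61% together). Csf1r was lower by 2.23 ± 0.61 log2 units (SE, adjusted p = 0.034), with every tumor library below every neonatal one. Il6ra was lower by 0.69 ± 0.19 (adjusted p = 0.036) and Il12rb2 by 0.95 ± 0.23 (adjusted p = 0.015). Il4ra was higher by 1.04 ± 0.25 (adjusted p = 0.017), without overlap. Il9r, Ccr6, Il21r and Il18r1 were higher by 1.73 ± 0.39, 1.65 ± 0.40, 1.33 ± 0.36 and 1.03 ± 0.28, and Ccr6 and Il21r overlapped between the groups. None of the 8 passed in each of the 18 fits that left out a library. Csf1r was lost without replicate 1 (0.16) or 2 (0.19) of tumor CD45+ or replicate 1 (0.11), 2 (0.072) or 3 (0.093) of neonatal CD45+ and under quantile normalization (0.052), and Il4ra without replicate 2 (0.12) of tumor CD45+ or replicate 1 (0.10) or 2 (0.083) of neonatal CD45+. Il6ra was lost without replicate 1 (0.14) or 2 (0.14) of tumor CD45+, replicate 1 (0.12), 2 (0.090) or 3 (0.071) of neonatal CD45+, replicate 2 (0.057) of tumor CD45- or replicate 2 (0.054) of anemia CD45-, and Il12rb2 without replicate 1 (0.084) or 2 (0.064) of tumor CD45+ or replicate 3 (0.064) of neonatal CD45+. Il9r was lost without replicate 2 (0.058) of neonatal CD45+, Ccr6 without replicate 3 (0.054) of tumor CD45+ or replicate 1 (0.11) or 2 (0.11) of neonatal CD45+, Il21r without replicate 3 (0.11) of tumor CD45+ or replicate 1 (0.16) or 2 (0.17) of neonatal CD45+ and Il18r1 without replicate 1 (0.085) or 2 (0.15) of tumor CD45+, replicate 1 (0.20) or 2 (0.14) of neonatal CD45+, replicate 1 (0.0504) or 2 (0.054) of tumor CD45-, replicate 2 (0.052) of anemia CD45- or replicate 1 (0.053) of neonatal CD45-. The count was 4 and 3 without tumor CD45+ replicates 1 and 2, 2, 1 and 5 without neonatal CD45+ replicates 1, 2 and 3, and 11 without tumor CD45+ replicate 3.

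Anemia and neonatal CD45+ cells differed in 20 receptors, 14 of 50 being higher and 6 lower in anemia CD45+ cells, against 9.08% and 11.3% of all tested genes (20.3% together). The receptors that rose were Ccr6, Ccr2, Cxcr6, Il5ra, Il12rb1, Il27ra, Il2ra, Il2rb, Il2rg, Il4ra, Il9r, Il21r, Il18r1 and Tgfbr2. Those that fell were Csf1r, Csf2rb, Csf2rb2, Ifnar2, Il20rb and Il18rap. Ccr6 rose by 3.48 ± 0.40 log2 units (SE, adjusted p = 1.1e-05), Il27ra by 3.11 ± 0.41, Il9r by 3.06 ± 0.39, Il21r by 2.81 ± 0.36, Il2rg by 2.24 ± 0.45 and Il2rb by 1.85 ± 0.39 log2 units (SE), each without overlap. Il9r was 13.03, 8.91 and 8.61 in anemia CD45+ cells, against 0.321, 0.0989 and 0.597 in neonatal CD45+ cells. Csf1r fell by 2.54 ± 0.61, Csf2rb by 1.66 ± 0.37 and Csf2rb2 by 1.66 ± 0.42. Ifnar2 fell by 1.01 ± 0.26 (adjusted p = 0.010), which did not hold without replicate 2 (0.068) of neonatal CD45+ and under median-ratio scaling (0.057).

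T cell marker sums in these groups were 283, 281 and 194 in anemia CD45+ libraries, against 17.6, 16.8 and 61.9 in neonatal CD45+ libraries, where 5 of the 7 reached 1 in each, and B cell sums were 776, 936 and 819, against 143, 100.1 and 343. Monocyte and macrophage sums were 136, 163 and 144, against 659.8, 500.3 and 1006, and sums of the 8 mast cell, basophil and eosinophil markers 23.95, 21.5 and 5.47, against 792, 1513 and 1301. Neutrophil sums were 839, 471 and 2709, against 11829, 10039.5 and 9395. NK cell sums, over 5 markers, overlapped, at 41.3, 51.2 and 50.6, against 60.1, 36.3 and 150. The part of these cells in the receptor differences was not tested. Of the 20 calls 15 held in each of the 18 fits that left out a library, and Ccr2, Il12rb1, Il18rap, Tgfbr2 and Ifnar2 did not. Ccr2 (1.38 ± 0.39, adjusted p = 0.018) was lost without replicate 1 (0.069) or 3 (0.070) of anemia CD45+ or replicate 2 (0.10) of neonatal CD45+. Il18rap (-1.01 ± 0.32) was lost without replicate 1 (0.089) or 2 (0.17) of anemia CD45+ or replicate 1 (0.061), 2 (0.087) or 3 (0.073) of neonatal CD45+, Tgfbr2 (0.96 ± 0.31) without replicate 1 (0.072), 2 (0.11) or 3 (0.083) of anemia CD45+, replicate 1 (0.11) or 2 (0.13) of neonatal CD45+ or replicate 2 (0.052) of tumor CD45- and Il12rb1 (0.56 ± 0.17) without replicate 1 (0.073) or 2 (0.075) of neonatal CD45+.

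Between tumor CD45- and anemia CD45- cells 1 of 50 receptors passed, Ifngr2, which rose by 2.33 ± 0.36 log2 units (SE, adjusted p = 0.017) in tumor CD45- cells. Of all tested genes 0.116% rose and 0.0357% fell (0.152% together). The 3 tumor libraries lay above the 3 anemia libraries, but the call was lost without replicate 1 (0.076) or 2 (0.14) of tumor CD45- or replicate 1 (0.096) or 2 (0.069) of anemia CD45-. Between tumor CD45- and neonatal CD45- cells limma called 0 of 50, while 0.402% of all genes rose and 2.13% fell (2.54% together). At an unadjusted p under 0.05, 2 receptors were higher and 7 lower in the tumor group, and the count without limma's trend and robust options was 0 as well. The count was 2 without tumor CD45+ replicate 3, and 1 each without anemia CD45+ replicate 3 or tumor CD45- replicate 3. Il13ra1 had the values 0.129, 0.0199 and 0.171 in tumor CD45-, against 1.34, 1.09 and 1.52 in neonatal CD45- cells (adjusted p = 0.062).

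The CD45 contrast itself differed between tumor-bearing mice and mice with anemia for 2 of 50 receptors, 1 in each direction, against 1.80% and 0.393% of all tested genes that were higher and lower. Ifngr2 had a contrast smaller by 2.23 ± 0.51 log2 units in tumor-bearing mice (SE, adjusted p = 0.029), and Il18rap one larger by 1.79 ± 0.45 (adjusted p = 0.046). The Il18rap difference did not pass with the replicate block (0.0502), under median-ratio scaling (0.067) or quantile normalization (0.081), with haemoglobin genes (0.056) or genes holding blanks (0.063) left out, or with pseudocounts of 0.1 (0.41) and 0.01 (0.75), and it passed in 2 of the 18 fits that left out a library. The Ifngr2 difference did not pass with a pseudocount of 0.01 (0.077). Against neonates 1 receptor passed, Il4ra, whose contrast was larger by 1.80 ± 0.36 log2 units (SE, adjusted p = 0.018) in tumor-bearing mice, where 0.509% of all genes were higher and 0.572% lower. None of these held in each of the 18 fits that left out a library. The tumor against anemia count was 0 without replicate 1 or 2 of tumor CD45+, anemia CD45+, tumor CD45- or anemia CD45-, and 1 without neonatal CD45+ replicate 1 or 2, replicate 3 of tumor CD45- or anemia CD45-, or any neonatal CD45- library. The tumor against neonatal count was 0 without tumor CD45+ replicate 2 or neonatal CD45+ replicate 1 or 2, and 2 without replicate 3 of any CD45+ group. Without tumor CD45+ replicate 3, 17 receptors differed between tumor and anemia, without anemia CD45+ replicate 3 it was 9, and without both 22, of which 11 were higher and 11 lower.

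Tumor CD45+ cells differed from MDSC, also from tumor-bearing mice, in 5 of 40 tested receptors, and in 9 with the replicate block. In a fit of the 9 libraries from these mice 4 rose and 1 fell in tumor CD45+ cells, against 5.42% and 0.995% of the 10255 genes tested (6.42% together). Within this fit Ccr6, Il9r and Il2rb reached 1 in tumor CD45+ libraries alone, and Ccr1 in MDSC libraries alone. Each entered the test only through the group where it is high, so the count describes the 40 tested and not all 64. Il21r was 7.33, 8.19 and 21.4 in tumor CD45+ cells, against 1.40, 0.610 and 0.419 in MDSC, higher by 2.76 ± 0.37 log2 units (SE, adjusted p = 0.0025). Ccr6 was 2.44, 2.24 and 9.13 in tumor CD45+ cells, against 0.0438, 0.248 and 0.106 in MDSC, higher by 2.10 ± 0.38 log2 units (SE, adjusted p = 0.0092). For both, every tumor CD45+ library lay above every MDSC library. Il9r and Il2rb were higher by 2.02 ± 0.46 (adjusted p = 0.029) and 1.61 ± 0.38 (adjusted p = 0.034). Ccr1, a receptor for Ccl3 and Ccl5, was 0.749, 0.721 and 0.973 in tumor CD45+ cells, against 2.12, 2.80 and 3.28 in MDSC, lower by 1.03 ± 0.21 (adjusted p = 0.017) and lost without replicate 2 (0.056) of tumor CD45+. Without any 1 MDSC library Ccr1 reached 1 in too few libraries and was not tested. B cell marker sums were 137, 174 and 553 in tumor CD45+ libraries, against 8.004, 8.69 and 12.7 in MDSC, and T cell sums 27.2, 41.4 and 135, against 3.81, 5.21 and 5.52. Their part in the difference was not tested.

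Il21r passed in each of the 9 fits that left out a library. Ccr6, Il9r and Il2rb reached 1 in too few libraries without any 1 tumor CD45+ library and were not tested there. Ccr6 passed in the other 6 fits. Il9r was lost without replicate 1 (0.052) or 3 (0.053) of tumor CD45- or replicate 1 (0.076), 2 (0.091) or 3 (0.11) of MDSC, and Il2rb without replicate 1 (0.055), 2 (0.058) or 3 (0.055) of tumor CD45- or replicate 1 (0.081), 2 (0.11) or 3 (0.11) of MDSC. The count was 2 without tumor CD45+ replicate 1 or 3 or any MDSC library, and 3 without tumor CD45- replicate 1 or 3. Under median-ratio scaling 2 were higher and 2 lower and under quantile normalization 1 and 1, the median of all genes being -0.11 and -0.04 instead of 0.16 and that of the receptors -0.40 and -0.34 instead of -0.14. Same-numbered libraries deviated together here as well (0.162 to 0.317, against at most 0.088 between other numbers). With the replicate block 9 passed, of which 5 were higher. The additions were Csf1r, higher in tumor CD45+ cells (adjusted p = 0.034, against 0.18 without the block), and Csf2rb2 (0.026 against 0.089), Csf3r (0.021 against 0.069) and Il1r2 (0.044 against 0.061), which were lower. Csf3r, Il1r2, Csf2rb and Cxcr2 averaged 45.6 ± 16.8, 113 ± 62.6, 37.995 ± 17.6 and 43.2 ± 24.8 in tumor CD45+ cells, against 93.5 ± 28.1, 289 ± 47.4, 71.3 ± 12.98 and 119 ± 67.4 in MDSC (SD, n = 3).

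**Figure D5:**
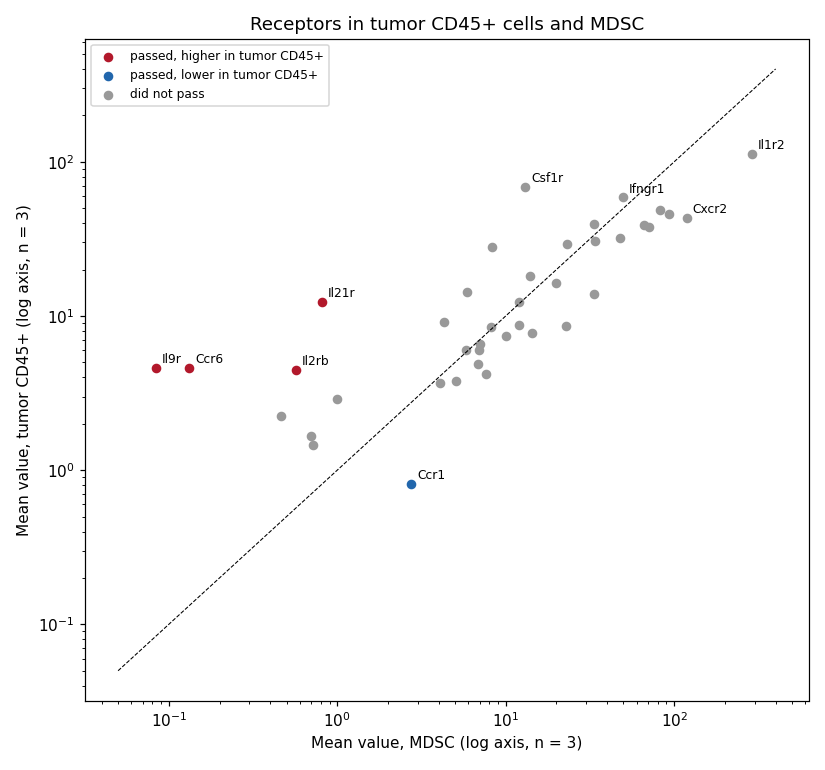
Mean value in tumor CD45+ cells (vertical, log axis, n = 3) against the mean in MDSC (horizontal, log axis, n = 3) for the 40 receptors tested, with the dashed line marking equal values. Red points passed and are higher in tumor CD45+ cells (Ccr6, Il2rb, Il9r and Il21r), the blue point, Ccr1, passed and is lower, and grey points did not pass.

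Ligands and signal transducers of the same pathways were mostly higher in CD45+ cells. Of 34 listed ligands 23 were tested, and 19 rose in tumor, 21 in anemia and 23 in neonatal mice. Of all tested genes 50.2%, 47.4% and 49.6% rose in these mice, and 10.9%, 11.3% and 10.3% fell. Il12a, a subunit of IL-12, rose by 2.22 ± 0.27, 2.31 ± 0.27 and 2.64 ± 0.27 log2 units (SE), and Cxcl16, the ligand of Cxcr6, by 0.87 ± 0.29, 1.81 ± 0.29 and 2.65 ± 0.29. Of 32 signal transducers, all tested, 27 rose and 2 fell in tumor, 26 rose and 1 fell in anemia and 25 rose in neonatal mice. Arrb2, the arrestin that turns chemokine receptors off, rose by 5.20 ± 0.29, 3.25 ± 0.29 and 3.91 ± 0.29, Jak3, the kinase bound to the common gamma chain, by 3.74 ± 0.24, 3.75 ± 0.24 and 2.48 ± 0.24, and Rgs2, a G protein regulator, by 4.67 ± 0.28, 4.68 ± 0.28 and 4.85 ± 0.28. Cish, an inhibitor induced by erythropoietin, fell by 2.63 ± 0.45 in tumor-bearing mice and by 1.47 ± 0.45 in mice with anemia, and Irf9, which acts downstream of Ifnar1 and Ifnar2, fell by 0.91 ± 0.37 in tumor-bearing mice. Of 23 tested receptors outside the symbol rule 17, 16 and 16 rose in tumor, anemia and neonatal mice and 2 fell in each, Epor and Ackr1. Epor was 3.71, 8.82 and 3.32 in tumor CD45+ cells, against 44.5, 46.5 and 29.3 in tumor CD45- cells, with no overlap and a change of -2.79 ± 0.52 log2 units. Ackr1, the Duffy chemokine-binding antigen of red cells, changed by -2.54 ± 0.58, -2.48 ± 0.58 and -2.36 ± 0.58 in tumor, anemia and neonatal mice.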

How the data were processed

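Total RNA of sorted spleen cells was sequenced after TruSeq library preparation, per the labels' protocols, one of which speaks of retinas although the tissue label is spleen. Bowtie 0.12.2 and the mm8 build are named in the submitters' processing notes. The deposited table holds log2 expression values from the authors for 14273 genes in 21 libraries; the scale behind the log and the counting are not given in the sources used here. Blank cells (7.90%) were taken as 0. Values were taken out of the log and tested as log2(value + 1), with a pseudocount of 1, for genes at 1 or more in at least 3 libraries, using limma 3.58.1 with trend and robust options (statmod 1.5.0, R 4.3.3) and Benjamini-Hochberg adjustment over all genes tested. One fit held the 18 Ter119+CD71+ libraries, which share one estimate of spread, and another the 9 libraries from tumor-bearing mice. The code was tested on simulated data. Each receptor may be named, and values per library are given for up to 6 passed changes in each direction with a mean of at least 5, and for a list of signalling chains. The receptors and gene lists were chosen with earlier results of these data known. Alternatives were other pseudocounts, filters, scalings, libraries left out and a replicate block. Same-numbered libraries deviated together (every correlation above 0.1) across the CD45 gate in tumor (0.110 to 0.271), anemia (0.109 to 0.227) and neonatal mice (0.215 to 0.363), between tumor and neonatal CD45+ cells (0.107 to 0.386) and between tumor CD45+ cells and MDSC (0.162 to 0.317). In that order, correlations between other numbers ran from -0.200 to 0.139, -0.201 to 0.114, -0.272 to 0.106, -0.317 to 0.264 and -0.236 to 0.088. The negative ones all involved replicate 3, while replicates 1 and 2 deviated together across numbers too. Sequences come from GENCODE and RefSeq on GRCm38, a build other than that of the files, so no coordinates were joined. Values of 1 receptor are not reported here, though counts over all receptors include it.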

Additional observations from a re-analysis of the deposited data

Results flagged for a closer look

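The CD45 contrast of Ifngr2 differed between tumor-bearing mice and mice with anemia by -2.23 ± 0.51 log2 units (SE, limma interaction, adjusted p = 0.029), the contrast being smaller in tumor-bearing mice. That of Il18rap differed by 1.79 ± 0.45 (adjusted p = 0.046) and was larger in tumor-bearing mice. The Il18rap difference did not pass with the replicate block (0.0502), under median-ratio scaling (0.067) or quantile normalization (0.081), with haemoglobin genes (0.056) or genes holding blanks (0.063) left out, or with pseudocounts of 0.1 (0.41) and 0.01 (0.75). That of Ifngr2 did not pass with a pseudocount of 0.01 (0.077). The CD45 contrast of Il4ra was larger in tumor-bearing mice than in neonates by 1.80 ± 0.36 (adjusted p = 0.018). None of the 3 passed in each of the 18 fits that left out a library.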

How the results depend on the processing

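No depth is known, so the spread between 3 libraries sets the precision. Receptors that passed, with 1 library left out in turn, numbered 33 to 41 across the CD45 gate in tumor, 40 to 45 in anemia and 30 to 35 in neonatal mice, 5 to 24 between tumor and anemia CD45+ cells, 1 to 11 between tumor and neonatal CD45+ cells, 15 to 24 between anemia and neonatal CD45+ cells, 0 to 1 between tumor and anemia CD45- cells, 0 to 2 between tumor and neonatal CD45- cells, 2 to 4 against MDSC, and 0 to 17 and 0 to 2 for the CD45 contrast of tumor against anemia and neonatal mice.

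Between tumor and anemia CD45+ cells the count of 18 was 7 and 0 with pseudocounts of 0.1 and 0.01 and 10 without genes holding blanks, where 6 of the 18 were not tested. Between tumor and neonatal CD45+ cells the count of 8 was 3, 0 and 3 in these settings, with 4 not tested in the last. Between anemia and neonatal CD45+ cells the count of 20 was 10 with a pseudocount of 0.01 and 13 without blanks, where 7 were not tested. Against MDSC the 5 were 3 with a pseudocount of 0.01, 2 under quantile normalization and 8 in a fit of all 21 libraries. Between tumor and neonatal CD45- cells 0 became 4 and 7 with the smaller pseudocounts, 1 without a filter, 1 under median-ratio scaling, 2 under quantile normalization, 1 without haemoglobin genes and 1 in all 21 libraries. The contrast of tumor against anemia passed for 1, 0 and 1 with pseudocounts of 0.1 and 0.01 and without blanks, 1 under median-ratio scaling and 1 without haemoglobin genes. Against neonates it passed for 2 with each smaller pseudocount and 2 under median-ratio scaling. Other causes were not tested.

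With a replicate block the count was 9 against MDSC, 1 between tumor and neonatal CD45- cells and 1 for the contrast of tumor against anemia. Where a same-number correlation fell below 0.1, the block added Il3ra between tumor and anemia CD45+ cells (adjusted p = 0.027). It also added Csf2ra (0.046), Il10ra (0.040), Il3ra (0.019) and Il6ra (0.041) between anemia and neonatal CD45+ cells, and Il13ra1 (0.049) between tumor and neonatal CD45- cells. Lowest same-number correlations there were 0.049, 0.076 and 0.032. Among the receptors reported here the block changed no call beyond these, those in the report and Il18rap in the contrast of tumor against anemia (0.0502).

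Leaving out replicate 3 of tumor CD45+ and of anemia CD45+ cells together, chosen after seeing the data, gave 27 between them, 12 between tumor and neonatal and 28 between anemia and neonatal CD45+ cells. It gave 3 between tumor and neonatal CD45- cells, 2 against MDSC, and 22 and 7 for the contrast of tumor against anemia and neonatal mice. Under quantile normalization the log2 fold change across the CD45 gate reversed for Tgfbrap1 in tumor (-0.12) and anemia (-0.14), and for Tgfbr3 (-0.032) and Il20rb (-0.21) in anemia.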
